A study of Mus musculus with 3 samples.

Results

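Brain endothelial cells were taken from single-cell Drop-seq of the cerebellum of 3 mice at postnatal day 7 (P7), with 1 mouse and 1 library each. All 3 mice were Math1-Cre/Eed fl/fl and untreated, so no value here compares genotypes. The Math1 (Atoh1) promoter drives Cre in cerebellar granule neuron progenitors and their descendants, where it deletes Eed, a subunit of the Polycomb repressive complex PRC2, so endothelial cells lay outside the lineage targeted. Cells had been released with papain from cerebellar tissue of 1 side of the midline. RNA molecules were counted near their 3′ ends by unique molecular identifiers (UMIs), 1 per molecule captured. The libraries held between 711290 and 1734000 UMIs in 936 to 1401 cell barcodes, and the same 16181 genes were listed in each. No barcode sequence was shared between libraries.

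Endothelial barcodes were chosen by measured values. A barcode needed at most 10% of its UMIs from mitochondrial genes, at least 3 UMIs over Cldn5, Flt1, Slco1c1, Sox17 and Ctla2a from at least 2 of these genes, and 0 UMIs over Dcn, a fibroblast gene, and C1qa, a myeloid gene. There were 54 such barcodes among the 3425 with at most 10% mitochondrial UMIs, of 3481 in all: 22 in mouse 1, 17 in mouse 2 and 15 in mouse 3. They made up 1.60% of mouse 1 (exact Clopper-Pearson 95% interval 1.01 to 2.41%), 1.84% of mouse 2 (1.08 to 2.93%) and 1.33% of mouse 3 (0.747 to 2.19%), with a mean of 1.59% ± 0.255 (SD, n = 3). The 3 intervals overlapped, and they cover counting error only. These shares describe barcodes released by the papain treatment, not the tissue.

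Endothelial cells line the inside of every blood vessel. In the brain, neighbouring endothelial cells are sealed by tight junctions and form few transport vesicles. They carry transporters for glucose, amino acids, lactate, lipids and iron, and these features together form the blood-brain barrier. Wnt/beta-catenin signalling from neural tissue induces these features during angiogenesis, VEGF and angiopoietin receptors govern vessel growth, and pericytes share the basement membrane around the capillary. The cerebellum is still being vascularised in the first postnatal week.

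The genes of the rule described the choice and were not tested. Cldn5, the main tight-junction claudin of brain vessels, gave 81, 43 and 185 UMIs in the endothelial barcodes of mice 1, 2 and 3. Slco1c1, a thyroid hormone transporter, gave 61, 27 and 86 UMIs. Flt1, a VEGF receptor, gave 62, 21 and 49 UMIs. Ctla2a, a cysteine protease inhibitor, gave 30, 21 and 67 UMIs, and the transcription factor Sox17 gave 36, 5 and 20. When barcodes were chosen by the other 4 genes only, 39 of 43 held a Cldn5 UMI, 33 of 47 a Flt1 UMI, 33 of 51 a Slco1c1 UMI, 30 of 46 a Ctla2a UMI and 25 of 51 a Sox17 UMI. Sox17 was uneven between mice: it was seen in 1 of 15 barcodes so chosen in mouse 2, against 14 of 22 in mouse 1 and 10 of 14 in mouse 3.

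The label was checked on 20 pan-endothelial surface genes that the rule did not use, such as Pecam1 and Cdh5. All 54 endothelial barcodes held a UMI of this list and 52 held at least 3. At the threshold, the 11 barcodes with exactly 3 marker UMIs (3, 7 and 1 per mouse) held the list at 7523 counts per 1000000 of their UMIs (CPM), beside 7353 CPM in the 43 with more. Just outside it, 6 barcodes with 2 marker UMIs from 2 genes held 6933 CPM, 3 with at least 3 UMIs from a single gene held 4597 CPM, 5 with 2 UMIs from a single gene held 1832 CPM, and 85 with 1 marker UMI held 436 CPM. The 3270 barcodes without a marker UMI held 111 CPM, and 8.62% of them had a UMI of the list. Outside the threshold the list was near the endothelial level only in the 6 barcodes with 2 of the genes, which rest on 21 UMIs of the list. No barcode that met the marker condition was lost to the conditions on Dcn, C1qa or mitochondrial UMIs.

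Depth differed between the groups, and the need for 3 marker UMIs favours deep barcodes: the median was 616 UMIs in barcodes with exactly 3 and 1758 in those with more. Over all endothelial barcodes the median was 1400, 777 and 2600 UMIs in mice 1, 2 and 3, beside 679.5, 600 and 1184.5 in the 3371 remaining barcodes, and 49 of the 54 held at least 500 UMIs. For each gene, UMIs were summed per mouse over the endothelial barcodes and over the remaining barcodes, and the 3 sums against 3 were tested with edgeR's quasi-likelihood test and Benjamini-Hochberg adjustment (adjusted p under 0.05). The p-values measure the spread between these 3 mice. Of 6568 genes tested, 636 (9.68%) were higher and 819 (12.5%) lower in endothelial barcodes, and the median log2 fold change was -0.30. The count of lower genes was 426 without mouse 1 and 499 without mouse 3. Since a gene high in endothelial barcodes passes the filter on low counts through them, counts over a list are given without that filter, over every listed gene in the files, and read against the 3.73% of 16174 genes that were higher and the 8.45% that were lower in that fit. The lists were chosen with earlier results of these data known.

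**Figure D1:**
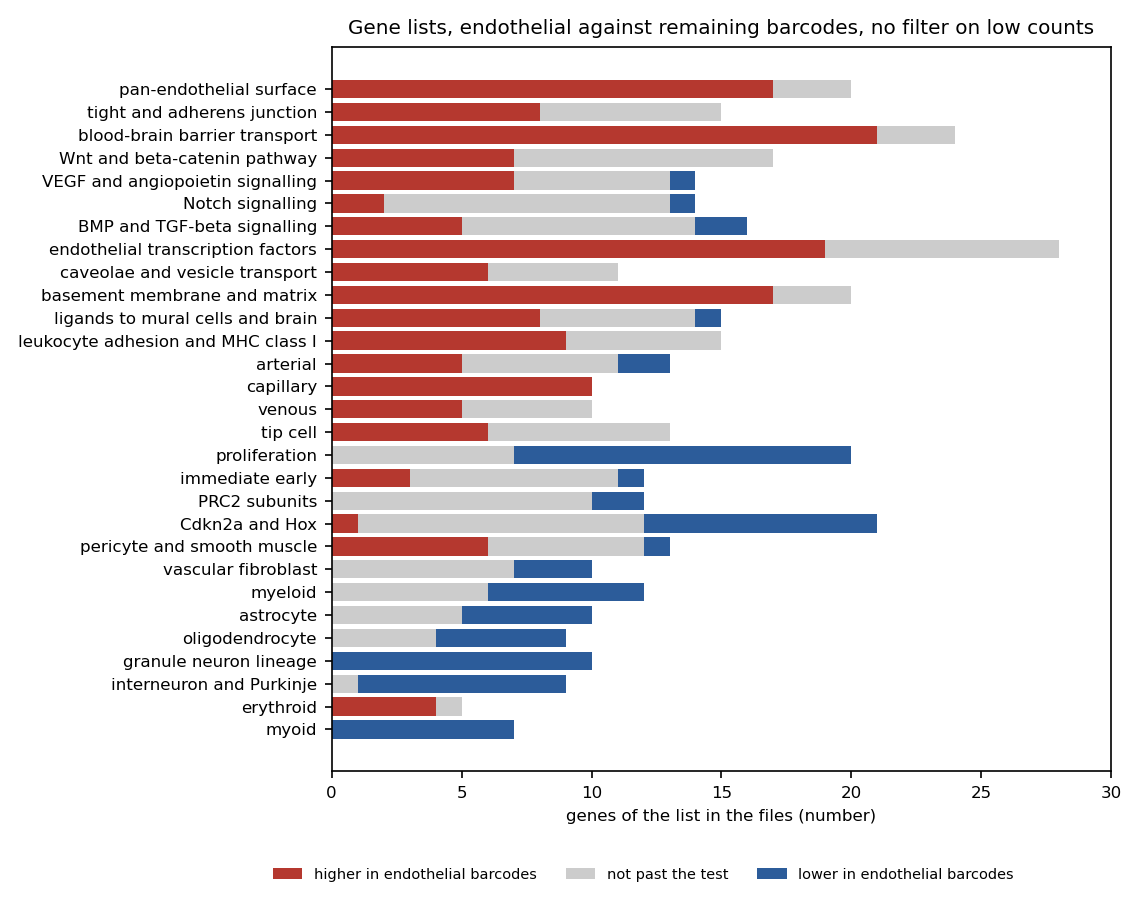
Each bar is 1 gene list, and its length is the number of listed genes in the files (x axis); red marks genes higher, blue genes lower and grey genes not past the test in endothelial against remaining barcodes, with no filter on low counts (edgeR, adjusted p under 0.05). Red fills 17 of 20 pan-endothelial surface genes and 21 of 24 transport genes, and blue fills 10 of 10 granule neuron lineage genes and 7 of 7 myoid genes.

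Of the 20 genes for surface proteins known from endothelium, 17 were higher, none was lower and the other 3 did not pass. Pecam1 (CD31), an adhesion molecule of endothelial contacts, lay at 466, 491 and 631 CPM in endothelial barcodes of mice 1, 2 and 3, and at 1.19 to 5.85 CPM in the remaining ones. Every mouse therefore showed it, and the groups did not overlap (log2 fold change 7.32 ± 0.48 (SE), adjusted p = 1.67e-15). Cdh5 (VE-cadherin), the adherens junction cadherin of vessels, gave 23, 13 and 13 UMIs and 523 ± 231 CPM (SD, n = 3), beside 5.92 ± 2.39 CPM (log2 fold change 6.32 ± 0.48, adjusted p = 1.07e-13). Eltd1 (Adgrl4), an adhesion G-protein-coupled receptor, lay at 415, 600 and 468 CPM against 1.73 ± 1.16 CPM (8.17 ± 0.53, adjusted p = 1.20e-15). Egfl7, a secreted factor of the vessel wall, lay at 872 ± 275 against 20.4 ± 7.95 CPM (5.34 ± 0.35). Cd93, a lectin-like receptor, gave 31, 5 and 39 UMIs and was low in mouse 2, though still higher than the remaining barcodes in each mouse (6.85 ± 0.42).

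**Figure D2:**
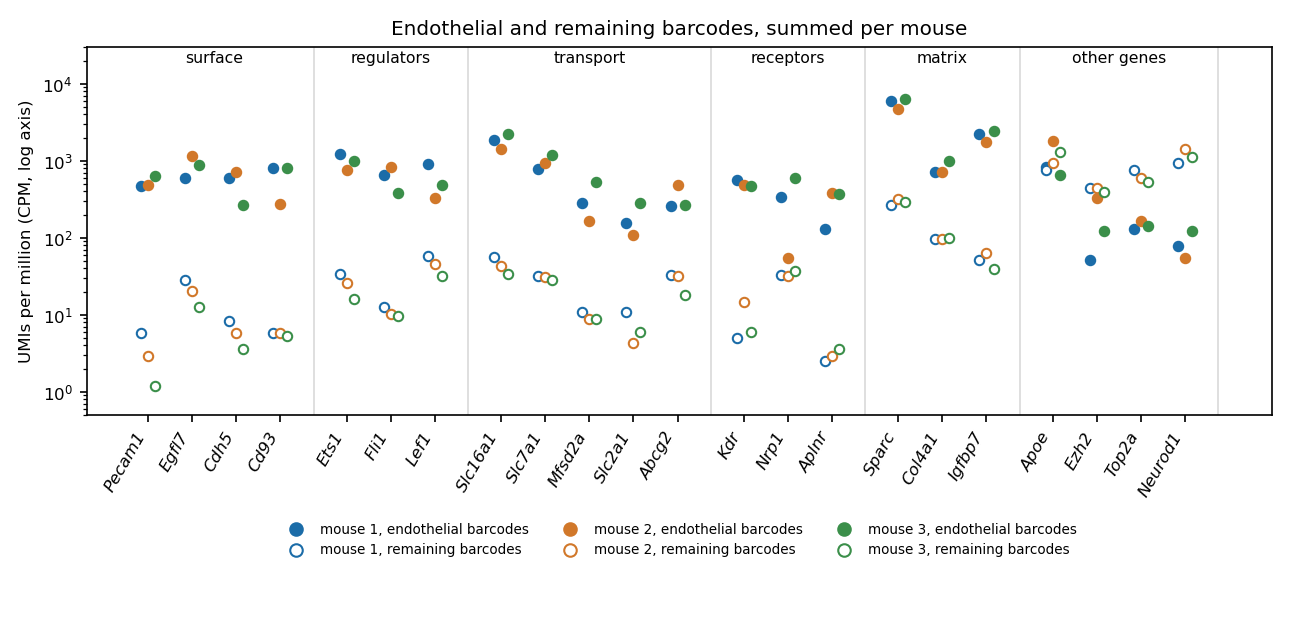
Each point is the summed level of 1 gene in 1 mouse, as CPM on a log axis; filled points are endothelial barcodes, open points remaining barcodes, and colours are mice. Pecam1 sits at 466 to 631 in the filled points and at 1.19 to 5.85 in the open ones.

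Transcription factors known from endothelium followed, with 19 of 28 higher and none lower. Erg, an ETS factor that maintains endothelial identity, lay at 492, 709 and 387 CPM in endothelial barcodes. It gave only 4 UMIs over all remaining barcodes (3, 1 and 0 per mouse), and its log2 fold change was 8.50 ± 0.57 (adjusted p = 2.64e-15). The ETS factors Ets1 (47, 14 and 49 UMIs, log2 fold change 5.33 ± 0.34) and Fli1 (25, 15 and 19 UMIs, 5.70 ± 0.40) were higher too. So were Foxq1, a forkhead factor of brain endothelium (19, 2 and 24 UMIs, 6.02 ± 0.50), Klf2, which responds to flow (16, 6 and 16 UMIs, 5.49 ± 0.49), and the hypoxia-inducible factor Epas1 (5.64 ± 0.51). Foxf2 and Foxc1, forkhead factors of brain vessels, had log2 fold changes of 5.76 ± 0.67 and 3.77 ± 0.62. Nr2f2 (COUP-TFII), which specifies veins, stood at 109 ± 47.5 CPM beside 110 ± 12.4 CPM and did not pass (0.13 ± 0.46, adjusted p = 0.88). Sox18, a factor of the same family as Sox17, gave 6, 0 and 10 UMIs and was too low to pass the filter.

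Since Erg and Eltd1 were the leading genes of their lists, the 250 bases before the RefSeq start are shown for both (GRCm38.p6, 5′ to 3′ on the strand of the gene), with the ETS core AGGAAG in capitals. Erg lies on the minus strand of chromosome 16 (95359169 to 95586593 in the GENCODE annotation), and this window, the one of its 3 windows that lies at the gene's start, is chr16:95586594-95586843. Eltd1 lies on the plus strand of chromosome 3 (151437887 to 151545086), and its window is chr3:151437632-151437881.
Erg: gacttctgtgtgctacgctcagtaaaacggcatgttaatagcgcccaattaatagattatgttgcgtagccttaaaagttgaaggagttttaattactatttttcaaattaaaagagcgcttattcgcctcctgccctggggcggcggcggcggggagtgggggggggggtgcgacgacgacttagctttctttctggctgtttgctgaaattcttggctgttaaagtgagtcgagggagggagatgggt
Eltd1: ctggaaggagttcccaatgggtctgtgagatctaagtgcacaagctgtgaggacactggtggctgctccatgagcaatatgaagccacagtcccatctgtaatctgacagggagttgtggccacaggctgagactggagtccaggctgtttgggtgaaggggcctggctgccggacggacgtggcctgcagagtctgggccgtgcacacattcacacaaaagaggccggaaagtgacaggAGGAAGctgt
The Erg window held no AGGAAG on either strand, and the Eltd1 window held 1, at 10 bases before the start. Neither window held the SOX core ACAAT on either strand. Over all 32851 windows of this length, 29.5% held AGGAAG, 27.7% held ACAAT and 7.78% held both, so these letters are common and a match is a description only. Pecam1 (chromosome 11, 106654217 to 106750628) and Tie1 (chromosome 4, 118471191 to 118490061), an angiopoietin co-receptor with a log2 fold change of 7.13 ± 0.61, are named without a window.

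Of the blood-brain barrier transporters, 21 of 24 were higher and none lower. The monocarboxylate transporter Slc16a1 (MCT1), which carries lactate and ketone bodies, lay at 1866, 1418 and 2259 CPM against 44.6 ± 11.8 CPM in the remaining barcodes (log2 fold change 5.38 ± 0.30, adjusted p = 1.24e-16). Its endothelial levels differed between mice by less than the distance to the remaining barcodes, and 42 of the 54 barcodes held a UMI. For amino acids, Slc7a1 (cationic) gave 30, 17 and 59 UMIs (4.98 ± 0.32), Slc38a5 (glutamine) 29, 18 and 37 UMIs (6.94 ± 0.43), and Slc7a5 (large neutral) 17, 8 and 38 UMIs (4.23). Slc3a2, the heavy chain of Slc7a5, followed at 3.19. These transporters were higher in all 3 mice. The glucose transporter Slc2a1 (GLUT1) was higher with only 6, 2 and 14 UMIs (4.74 ± 0.55, adjusted p = 6.65e-09), and Mfsd2a, a lysolipid transporter of the barrier, with 11, 3 and 26 UMIs (5.20 ± 0.47, adjusted p = 1.50e-11). Both were lowest in mouse 2, the shallowest library. The efflux pumps Abcb1a (P-glycoprotein, 17, 3 and 18 UMIs, 6.71 ± 0.55) and Abcg2 (10, 9 and 13 UMIs, 3.50 ± 0.44) were higher. The organic anion transporter Slc22a8 (7.13 ± 0.56), the iron exporter Slc40a1 (6.96 ± 0.51) and the transferrin receptor Tfrc (3.32 ± 0.40) were higher as well.

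Of junction genes, 8 of 15 were higher and none lower, and the other 7 did not pass. Tjp1 (ZO-1), a scaffold of tight junctions, gave 20, 7 and 15 UMIs and 402 ± 108 against 31.4 ± 10.6 CPM (log2 fold change 3.64 ± 0.40). Lsr, of tricellular junctions, gave 12, 3 and 7 UMIs (6.00 ± 0.58), and the adhesion molecule F11r (JAM-A) 8, 3 and 13 UMIs (5.04 ± 0.52). Ocln (occludin) gave 9, 0 and 5 UMIs and Cgnl1 (paracingulin) 15, 0 and 13, with none in mouse 2, and neither passed the filter. Cldn12 was not seen in endothelial barcodes, where the 24 UMIs of the remaining barcodes predict 0.715, so its absence could not be detected at this depth. Genes of caveolae were higher for 6 of 11, led by Cav1 (10, 5 and 10 UMIs, 5.81 ± 0.53). Plvap, which forms the diaphragms of leaky vessels, gave 1 UMI.

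Among receptors, Kdr (VEGFR2) gave 22, 9 and 23 UMIs and 510 ± 53.5 CPM beside 8.51 ± 5.25 CPM (log2 fold change 6.02 ± 0.44). Tek (TIE2), the angiopoietin receptor, gave 23, 9 and 16 UMIs (6.72 ± 0.51). The co-receptor Nrp1 gave 13, 1 and 29 UMIs (3.47 ± 0.42) and was uneven between mice. Of this list, 7 of 14 genes were higher and 1 lower. Of the ligands, Angpt1 gave 1 UMI, 5.72% of the remaining level (95% counting interval 0.145 to 32.0%). The others were too low to pass the filter: Vegfc gave 5, 0 and 2 UMIs, Vegfb and Pgf 1 UMI each, and Vegfa and Angpt2 none, where the remaining level predicts 2.23 and 0.238. Of 17 genes of the Wnt/beta-catenin pathway, 7 were higher and none lower. Lef1, a transcription factor and target of the pathway, gave 35, 6 and 24 UMIs and 574 ± 299 against 44.8 ± 13.0 CPM (3.74 ± 0.36, adjusted p = 1.05e-10), and the receptor Fzd6 gave 14, 9 and 22 UMIs (5.44 ± 0.47). The feedback target Axin2 passed narrowly (1.42, adjusted p = 0.042) and did not with mouse as a block (1.38, adjusted p = 0.067), without mouse 1 (1.35, adjusted p = 0.18) or without mouse 3 (0.76, adjusted p = 0.57). It also did not pass with DESeq2's size factors (1.30), with the study's filters on cells (1.32), without the filter on low counts (1.02), or where endothelial barcodes held 0 UMIs of 7 genes of other cell types (0.37).

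The Notch target Hes1 lay at 648, 927 and 773 CPM beside 106 ± 10.2 CPM (log2 fold change 2.82 ± 0.29), but only 2 of 14 Notch genes were higher and 1 was lower. Of 16 BMP and TGF-beta genes, 5 were higher and 2 lower. Their targets went apart: Id1 (19, 17 and 13 UMIs, 3.77 ± 0.41) and Id3 (8, 11 and 35 UMIs, 2.52 ± 0.41) were higher, while Id2 (4, 3 and 1 UMIs, -2.41 ± 0.48) was lower. All 3 encode inhibitors of basic helix-loop-helix factors.

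Of 20 basement membrane and matrix genes, 17 were higher and none lower. Sparc, a collagen-binding matrix protein, lay at 5908, 4745 and 6249 CPM against 293 ± 25.7 CPM (log2 fold change 4.24 ± 0.26, adjusted p = 4.65e-16). It was seen in all 54 endothelial barcodes and in 12.4% of the remaining ones. When each barcode of at least 500 UMIs was thinned to 500, Sparc was seen in 91.8% of 49 endothelial and 8.39% of 2359 remaining barcodes. Col4a1, a collagen of the basement membrane, gave 28, 13 and 49 UMIs (3.06 ± 0.29). The laminin Lama4 and fibronectin (Fn1) had log2 fold changes of 4.40 ± 0.52 and 4.29 ± 0.52, and Vwf, the clotting factor stored by endothelium, gave 9, 3 and 7 UMIs (7.05 ± 0.66). Of 15 ligands and receptors towards mural cells and brain, 8 were higher and 1 lower. Igfbp7, a secreted vascular protein, lay at 2202, 1745 and 2443 CPM against 51.7 ± 12.3 CPM (5.38 ± 0.30, adjusted p = 9.44e-17). Cxcl12, a chemokine, gave 70 UMIs in only 14 of the 54 barcodes (3.14 ± 0.31), and the apelin receptor Aplnr gave 5, 7 and 18 UMIs (6.41 ± 0.54).

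Genes of MHC class I and leukocyte contact were higher for 9 of 15, among them H2-D1 (log2 fold change 3.11 ± 0.35), B2m (1.70 ± 0.31) and Ly6c1, a surface antigen of brain endothelium (22, 6 and 14 UMIs, 7.14 ± 0.53). Of the genes named for the size of their change and not given above, AU021092 led, with 11, 6 and 21 UMIs against 1 UMI in all other barcodes (9.50 ± 0.64). Ushbp1 (7.93), Pglyrp1 (7.54), Ptprb, an endothelial phosphatase (7.01), Icam2 (6.99), Gimap1 (6.97), Grap (6.80), Cd34 (6.66) and Gpr116 (6.61) came with it. Ptprb, Icam2 and Cd34 also belong to the pan-endothelial surface list. Genes named by size gave 70 calls over the 3 comparisons, some genes in more than 1, and these held in each of the 663 values computed under the alternatives. A gene not tested under an alternative gave no value there. These genes were chosen in the same data by size, adjusted p and direction, so this is a description only.

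Genes of vessel zones were counted next, and the counts of the lists were not tested against each other. The comparison is with barcodes of other types, so these counts cannot place endothelial barcodes in a zone. All 10 capillary genes were higher, among them Spock2, a matrix proteoglycan (66, 31 and 112 UMIs, log2 fold change 4.27 ± 0.29), and Car4, a carbonic anhydrase of capillary surfaces (29, 12 and 56 UMIs, 6.53 ± 0.40). This list includes Rgs5, which also marks pericytes, and shares Mfsd2a, Tfrc, Slc16a1, Slc7a5 and Slc38a3 with the transporters. Rgcc did not pass where endothelial barcodes held 0 UMIs of 7 genes of other cell types (1.21, adjusted p = 0.31). Of 10 venous genes 5 were higher, among them Slc38a5, Vwf and Tmem252 (13, 4 and 11 UMIs, 7.08 ± 0.62). Of 13 arterial genes 5 were higher and 2 lower. Gja4 (connexin 37) gave 12, 1 and 11 UMIs (5.27 ± 0.56), while Stmn2 (-3.16 ± 0.43) and Cdkn1c (-1.84 ± 0.35), which neural cells use too, were lower. Per barcode, Gja4 was seen in 12, Slc38a5 in 35, both in 5 and neither in 12 of the 54, at no more than 4 Gja4 and 10 Slc38a5 UMIs in a barcode. Of 13 tip-cell genes, which mark sprouting vessels, 6 were higher. With the filter on low counts 4 were, Cd34, Cxcr4, Lamb1 and Unc5b, each also in another list here. Cxcr4 and Lamb1 did not pass without mouse 3 (1.69 and 1.43, adjusted p = 0.18 and 0.27). With 0 UMIs of 7 genes of other cell types they did not either (1.69 and 0.38, adjusted p = 0.089 and 0.82). The list lay at 1503, 873 and 1832 CPM, beside 857, 1315 and 1455 CPM in the perivascular barcodes described below.

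Proliferation genes were not higher: of 20, none was higher and 13 were lower than in the remaining barcodes, which include dividing granule neuron progenitors. The list lay at 933, 1745 and 1242 CPM beside 5040, 3879 and 3966 CPM, so endothelial barcodes were lower in every mouse but by differing amounts. Pooled over mice they held 129 UMIs where the remaining level predicts 457.1, or 28.2% (95% interval for counting error alone, 23.5 to 33.6%). Mki67, a marker of cycling cells, gave 4, 3 and 5 UMIs (log2 fold change -1.98 ± 0.40), and Top2a, a topoisomerase of dividing cells, 5, 3 and 7 UMIs (-2.17 ± 0.36). The UMIs were uneven, with 5 barcodes (2, 1 and 2 per mouse) holding 84 of the 129 and up to 36 in a single barcode. The barcode with 36 also held 23 UMIs of Rgs5, and those with 14 and 9 held 27 and 17. Those with 19 and 6 held 0 Rgs5 UMIs. Of 12 immediate early genes, which dissociation can induce, 3 were higher and 1 lower. Junb was higher (1.88 ± 0.37, adjusted p = 0.000188), and Fos did not pass (0.87 ± 0.36, adjusted p = 0.079).

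**Figure D3:**
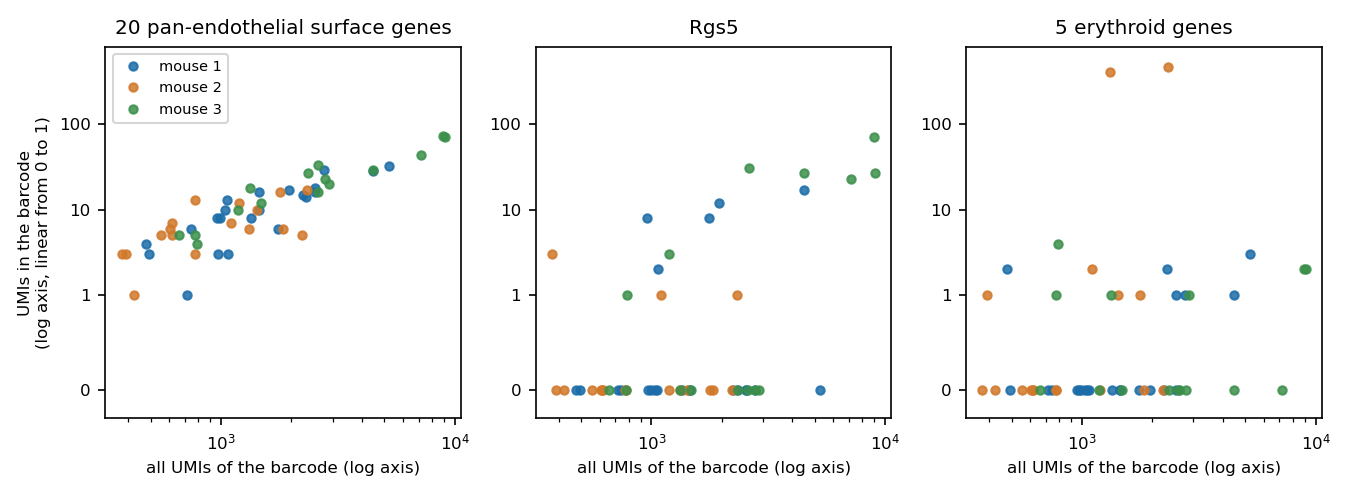
Each point is 1 endothelial barcode, coloured by mouse, with all its UMIs on the x axis (log) and its UMIs of a gene list on the y axis (log above 1); panels show different lists. Rgs5 reaches 71 UMIs in a barcode, with 9 barcodes at 5 or more, and globin reaches 470 UMIs in 1 barcode of mouse 2.

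For PRC2, none of 12 subunit genes was higher and 2 were lower. Eed, the gene floxed in these mice, gave 2, 1 and 2 UMIs, 49.0 ± 7.33 CPM beside 38.4 ± 4.29 CPM in the remaining barcodes (log2 fold change 0.30 ± 0.72, adjusted p = 0.82). Whether reads near the 3′ end lie in the floxed part is not known, so they cannot check the deletion. Ezh2, the methyltransferase of the complex and a gene of dividing cells, gave 2, 6 and 6 UMIs, 167 ± 143 beside 429 ± 32.1 CPM (-1.68 ± 0.40, adjusted p = 0.00162), and did not pass without mouse 1 (-1.27, adjusted p = 0.080). The remaining barcodes include the lineage in which Eed is targeted. Of 21 Cdkn2a and Hox genes, most of them known PRC2 targets, 1 was higher and 9 were lower, and 14 had no UMI in endothelial barcodes. Summed over 17 Hox genes, endothelial barcodes held 4 UMIs where the remaining level predicts 73.1, or 5.47% of it (counting interval over the pooled mice 1.49 to 14.03%), with 1, 0 and 3 UMIs per mouse. Hoxc9 gave none, at least 3.06-fold lower at a floor of 3 UMIs over the group, and Hoxa7 1 UMI, 6.90% (0.174 to 38.6%). Cdkn2a, which encodes the cell cycle inhibitors p16 and p19, gave 1 UMI, 8.33% (0.210 to 46.7%). Its neighbour Cdkn2b gave 2, 2 and 3 UMIs, 74.0 ± 30.7 beside 10.4 ± 3.57 CPM (2.72 ± 0.71, adjusted p = 0.0039), and did not pass without mouse 3 (2.49, adjusted p = 0.056). Cdkn1a (p21), at 24 UMIs, did not pass (-0.21 ± 0.36, adjusted p = 0.74).

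Markers of other cell types were mostly low, but astrocyte, fibroblast, pericyte and globin genes were uneven. Of granule neuron lineage genes 10 of 10 were lower, at 32 UMIs where 365.6 are predicted (8.75%, 5.98 to 12.4%), with a UMI in 18 of the 54 barcodes. Of myoid genes 7 of 7 were lower, at 9 UMIs against 156.1 (5.77%, 2.63 to 10.95%). The neuronal tubulin Tubb3 gave 2 UMIs against 70.4 (2.84%, 0.344 to 10.3%), and the neuronal filament gene Ina gave none, at least 11.7-fold lower. Of oligodendrocyte genes 5 of 9 were lower, of interneuron and Purkinje genes 8 of 9, and none of either was higher. In the remaining barcodes the interneuron and Purkinje list lay at 316, 291 and 2939 CPM, so mouse 3 stood apart. Without mouse 3 the call of Pcp4 was lost, though its log2 fold change stayed at -7.54 (adjusted p = 0.14). The call of Gad1 was lost without any 1 of the mice, with log2 fold changes still at -8.35 to -7.37 (adjusted p = 0.065 to 0.16). Mbp, of oligodendrocytes, gave 1 UMI. Of vascular fibroblast genes 3 of 10 were lower and none higher, and the list lay at 25.9, 218 and 570 CPM beside 883, 977 and 944 CPM. It was nearest to the remaining level in mouse 3, which held 9 of the 10 Col1a1 UMIs. Of myeloid genes 6 of 12 were lower and none higher. The rule itself required 0 UMIs of Dcn and C1qa. The myeloid genes Csf1r and P2ry12 were at 0. Astrocyte genes were mixed, at 1166, 2073 and 1588 CPM for the list beside 2116, 1804 and 3464 CPM, with a UMI in 42 of the 54 barcodes. Of 10, 5 were lower and none higher without the filter on low counts. Apoe, made by astrocytes and myeloid cells, lay at 1093 ± 618 beside 991 ± 267 CPM (log2 fold change -0.03 ± 0.28, adjusted p = 0.95). The gap junction gene Gja1 gave 7, 4 and 13 UMIs and was higher with the filter (1.35 ± 0.41, adjusted p = 0.015), but not without it (0.95, adjusted p = 0.14) or without any 1 of the mice (1.13 to 1.32). The water channel Aqp4 gave 2 UMIs. The part of astrocyte RNA in the other results was not tested.

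Of pericyte and smooth muscle genes, 6 of 13 were higher and 1 lower. Rgs5, a pericyte gene, gave 47, 5 and 183 UMIs, 1218, 273 and 3725 CPM beside 181 ± 12.5 CPM in the remaining barcodes (log2 fold change 3.37 ± 0.39). It was uneven: 15 barcodes held a UMI, and 9 (4, 0 and 5 per mouse) held at least 5. Of those 9, 8 also held a UMI of another gene of the list, beside 3 of the other 45. Their median depth was 4484 UMIs, beside 1184 in the other 45, and a choice by UMIs of 1 gene itself favours deep barcodes with UMIs of further genes. The list stood at 1503, 545 and 5353 CPM in endothelial barcodes, 389 to 408 in the remaining ones and 6969 to 11978 in perivascular ones. Rgs5, Vtn and Kcnj8 of this list also chose the perivascular barcodes, which raises the perivascular level by construction. Doublets were not called. When endothelial barcodes were also required to hold 0 UMIs of Rgs5, Vtn, Kcnj8, Col3a1, C1qb, Aqp4 and Mbp, 36 of the 54 were left (16, 13 and 7 per mouse), and 393 of 6472 genes tested (6.07%) were higher. The part of the smaller number of barcodes in this count was not tested. The part of pericyte RNA in the other results was not tested.

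Endothelial barcodes held 903 globin UMIs, 886 of them in 5 barcodes. In mouse 2, 1 barcode held 470 (20.2% of its 2328 UMIs) and another 407 (30.9% of its 1318). Hbb-bs, a beta-globin, gave 5, 426 and 6 UMIs, or 130, 23235 and 122 CPM, so it was high in 1 mouse only. Its log2 fold change of 3.12 passed, but it was 0.54 with mouse as a block (adjusted p = 0.23) and -2.44 without mouse 2 (adjusted p = 5.28e-05). After thinning, Hbb-bs was seen in 10.2% of endothelial and 9.50% of remaining barcodes. Globin UMIs therefore lay mostly in a few barcodes.

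Perivascular barcodes are the other cells of the vessel wall, chosen by Rgs5, Vtn, Kcnj8, Col3a1 and Dcn (at least 3 UMIs from at least 2 of these genes, 0 UMIs of Cldn5 and C1qa). There were 89 (38, 23 and 28 per mouse). In them the vascular fibroblast list lay at 12766, 18609 and 20706 CPM, and the pericyte and smooth muscle list at 6969, 9355 and 11978 CPM. Both lists hold genes of this choice. Fibroblast genes stood higher in each mouse, so the comparison is not one with pericytes alone. Of 748 genes tested, 110 (14.7%) were higher and 98 (13.1%) lower in endothelial barcodes, and the higher count was 69 without mouse 1 and 73 without mouse 3. Without the filter on low counts, where 1.44% of 12183 genes were higher and 1.4% lower, 13 of 20 pan-endothelial genes, 18 of 24 transporters and 11 of 27 transcription factors were higher, and 1 transcription factor was lower. Car4, Ushbp1, Erg and Tek had no UMI in perivascular barcodes and were at least 30.1-fold, 19.6-fold, 15.8-fold and 14.9-fold higher at a floor of 3 UMIs over the group. Fam101b, a filamin-binding protein also known as Rflnb, gave 112 UMIs against none, at least 34.8-fold. Slc16a1 was higher too (log2 fold change 5.38 ± 0.51). Of 20 matrix genes, 2 were higher and 3 lower. Sparc lay at 5908, 4745 and 6249 CPM beside 2199, 3135 and 3227 CPM (0.96 ± 0.25, adjusted p = 0.0037), and did not pass without mouse 1 (0.67, adjusted p = 0.23). Col4a1 was lower, at 726, 709 and 997 beside 1999, 2781 and 2955 CPM (-1.66 ± 0.28). The secreted Igfbp7 was higher (1.30 ± 0.30) but did not pass without mouse 1 (0.91, adjusted p = 0.084), and Cxcl12 was lower (-1.52 ± 0.30). The venous factor Nr2f2 was lower, at 130, 54.5 and 142 beside 485, 708 and 455 CPM (-2.12 ± 0.46). Hes1 and Id3, higher than in the remaining barcodes, did not pass here (log2 fold change 0.13 and 0.37). The Notch list lay at 1192, 1091 and 1303 beside 1171, 1365 and 1114 CPM. The list of MHC class I and leukocyte contact lay at 4275, 2945 and 3481 beside 4313, 3338 and 3637 CPM. With the filter, 6 of its genes were tested. H2-D1, Ly6c1 and Ly6e were higher, Ifitm2 and Ifitm3 lower, and B2m did not pass. Ifitm3 did not pass without mouse 1 (-1.06, adjusted p = 0.079) or mouse 3 (-1.10, adjusted p = 0.053). Of 12 immediate early genes, none was higher and 3 were lower, among them Fos (-2.15 ± 0.45) and Egr1 (-2.40 ± 0.46). Among genes high in perivascular barcodes, the GABA transporter Slc6a13 gave 0 UMIs against 88, at least 31.5-fold lower, and the collagen Col1a2 3 UMIs, 0.67% of the perivascular level (0.14 to 1.97%).

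**Figure D4:**
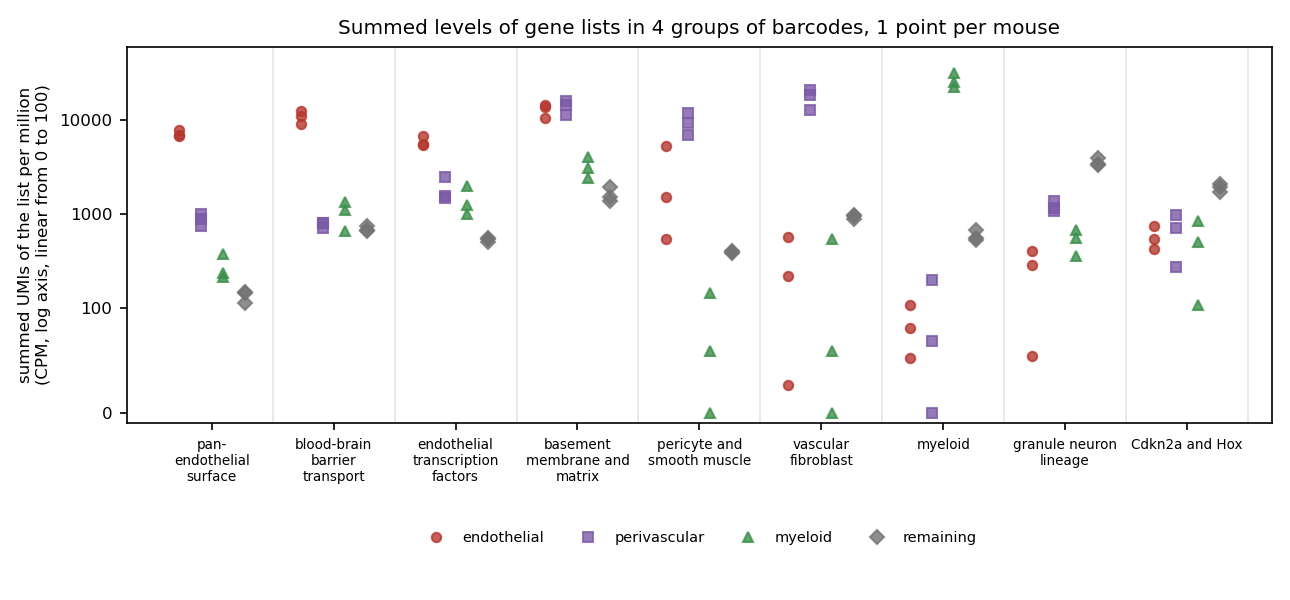
Each point is 1 mouse, with the summed CPM of a gene list on the y axis (log above 100) and lists on the x axis; symbols and colours mark endothelial, perivascular, myeloid and remaining barcodes. Pan-endothelial genes sit at 6818 to 7898 in endothelial and 743 to 1011 in perivascular barcodes, while matrix genes lie at 10527 to 14635 and 11224 to 16024.

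Myeloid barcodes, which like endothelium lie outside the neural lineages, were chosen by C1qa, C1qb, C1qc, Csf1r and Tyrobp in the same way, with 0 UMIs of Cldn5 and Dcn. There were 69 (28, 17 and 24 per mouse). Of 568 genes tested, 103 (18.1%) were higher and 100 (17.6%) lower in endothelial barcodes. Without the filter on low counts, where 2.03% of 11941 genes were higher and 1.37% lower, 14 of 20 pan-endothelial genes, 16 of 24 transporters, 10 of 20 matrix genes and 10 of 10 capillary genes were higher, and none of these was lower. The taurine transporter Slc6a6, at 62 beside 29 UMIs, did not pass (log2 fold change 0.49 ± 0.44, adjusted p = 0.44). Slc7a1, Car4, Slc38a5, Slc7a5, Pecam1 and Kdr had no UMI in myeloid barcodes and were at least 24.1-fold, 22.1-fold, 19.1-fold, 14.4-fold, 13.2-fold and 12.3-fold higher. Genes of antigen presentation went the other way or did not pass: B2m was lower (-2.26 ± 0.32), and H2-D1 (-0.18 ± 0.42, adjusted p = 0.82) and H2-K1 (-0.23 ± 0.43, adjusted p = 0.76) did not pass. The interferon-induced Ifitm3 was higher (2.34 ± 0.57). Apoe was lower than in myeloid barcodes (1093 against 21363 CPM, -4.44 ± 0.37). Ctss, a lysosomal protease of microglia, gave 0 UMIs in endothelial barcodes, at least 110.2-fold lower, and the microglial receptors Cx3cr1 and P2ry12 none, at least 60.5-fold and 47.3-fold lower. All comparisons used the same endothelial barcodes, and the perivascular and myeloid barcodes are among the remaining ones.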

How the data were processed

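Drop-seq libraries of 3 Math1-Cre/Eed fl/fl cerebella at P7 were analysed. The authors deposited whole-number UMI counts for each gene and barcode, without normalization. The submitters' processing notes name STAR and mm10, and their versions and settings are not given in the sources used here. Members and gene lists were chosen with earlier results of these data known. Of the listed genes, 8 were matched under an older symbol, and some single listed genes are not reported here.

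Each mouse gave 1 sum of UMIs per group, and 3 sums against 3 went into edgeR 4.0.16 in R 4.3.3 (TMM, filterByExpr, glmQLFit). The 7 genes of the rule, and those of the perivascular and myeloid rules in their comparisons, were not tested. Cells are not replicates. An SE is the size of the log2 value over the root of its F statistic. Levels are counts per 1000000 UMIs of the group. Scaling by DESeq2's size factors shifted the median log2 fold change against the remaining barcodes by -0.12. The test was first run on simulated data.

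Genes were named by size (the 20 most higher and 10 most lower against the remaining barcodes, and 10 each way in the other comparisons, with adjusted p under 0.05, 1 direction in 3 of 3 mice and at least 30 UMIs, expected UMIs for lower genes) and, in each list, by the most UMIs or as genes defining it. Any other gene was named after its values were seen. The 2 sums compared in a mouse share an animal and a library. Across genes, which are not independent replicates, deviations of the paired sums from their group means correlated at 0.0719, 0.123 and 0.149 in mice 1, 2 and 3 (remaining), 0.0963, 0.0418 and 0.271 (perivascular), and 0.180, 0.0837 and 0.195 (myeloid). Alternatives were mouse as a block, DESeq2 1.42.0 and its size factors, no filter on low counts, the study's filters on cells (at least 500 UMIs and 200 genes, up to 4 SD above the median of either), other marker rules, and leaving out each mouse. Between mice, sums of endothelial barcodes differed by more than sampling noise (chi-square per degree of freedom 2.86, 1.80 and 3.18).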

Additional observations from a re-analysis of the deposited data

How the results depend on the processing

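Of the values for named and listed genes recomputed under the alternatives, 528 against myeloid, 629 against perivascular and 2473 against remaining barcodes kept their direction and side of the threshold. Calls were lost in 20, 24 and 163 and gained in 2, 2 and 30, and 9 changed sign, all against the remaining barcodes. Without a filter on low counts, 1366 genes were lower than in the remaining barcodes, 176 were higher and 170 lower than in perivascular ones, and 242 higher and 163 lower than in myeloid ones. With the study's filters on cells, 64 genes were higher than in perivascular barcodes, 67 higher and 53 lower than in myeloid ones, and the mean share of endothelial barcodes was 1.95%. That share was 1.14% with at least 5 marker UMIs from 3 genes. Requiring 0 UMIs of 7 genes of other types, with 36 barcodes left, gave 393 genes higher than in the remaining barcodes. Leaving out 1 mouse gave 447 to 605 higher and 426 to 628 lower genes (remaining), 69 to 114 and 77 to 96 (perivascular), 70 to 148 and 71 to 123 (myeloid), and shares of 1.47 to 1.72%. Requiring 0 UMIs of the 7 genes changed the sign of Rgs5 (-10.15) and Vtn (-8.44) by construction, and of Hbb-bt (-1.17), for which the cause was not tested. Vtn was -0.038 with the study's filters and -0.59 to 2.28 leaving out 1 mouse. Leaving out 1 mouse gave -2.44 to 3.66 for Hbb-bs, -2.48 to 4.05 for Hba-a1, -3.39 to 3.51 for Hba-a2 and -1.77 to 2.91 for Hbb-bt, each below 0 without mouse 2, which held most globin UMIs. The replicate block gave 599 higher and 697 lower genes (remaining), 121 and 108 (perivascular), and 109 and 106 (myeloid), and, in the comparison each gene of the text is named for, changed the calls of Axin2 and Hbb-bs. With 54 barcodes, genes of few UMIs cannot be told from absent ones.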
